A study of Sus scrofa with 54 samples.

Results

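This is a comparison of the ileum of 6 piglets kept in isolators with antibiotics (IR) and of 6 piglets reared on an indoor sow (IN), all killed at day 56. The 12 arrays were picked by their sample titles, out of 54 arrays in the series. Earlier results of these data were known at that choice. The sows were Large White × Landrace, and the methods state that a single boar, whose breed is not given, sired every litter. IR piglets were born to the indoor sows, taken from them at the end of their first day, housed singly in isolator units, fed milk replacer until day 28 and dosed every day with Baytril (enrofloxacin) and an amoxicillin preparation. IN piglets stayed with their sow until weaning at day 28, and both groups had creep feed freely afterwards. At day 56 the groups therefore differed in housing, in daily antibiotics, in early feeding and in time spent with the sow and litter. IR piglets had also been moved to isolators at a university veterinary school. These differences cannot be told apart here. The indoor sows supplied both groups, so that IR and IN piglets may be litter-mates, but the labels tie no array to a litter or to an experimental run. The 6 outdoor sow-reared piglets (OUT) of day 56 entered the fit and their levels are given beside those of single genes. Comparisons of IR and of IN with OUT share these arrays with the comparison of IR and IN, and are not independent of it.

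The ileum is the last part of the small intestine, where bile acids are taken up and where much of the gut lymphoid tissue lies. Its enterocytes import fat and sugar from the lumen, oxidize part of the fatty acids in their mitochondria, and carry immunoglobulin A from plasma cells of the lamina propria to the lumen. Intestinal bacteria are known to act on each of these functions, and they also influence the level of antimicrobial proteins and of the interferon and chemokine genes of the mucosa. RNA came from whole ileal tissue, so that fewer cells of a type and less RNA per cell cannot be told apart.

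Values are log2 signals normalized by the authors with gcRMA, and a difference of 1 is a 2-fold change. A call required at least a 2-fold change and p under 0.01, before adjustment, in the moderated test of limma. Exact permutation tests over the 924 splits of 12 piglets into 6 and 6, two-sided, give no p below 0.00216. Mean correlations of an array with its own group lay between 0.977 and 0.982 in IR and between 0.98 and 0.982 in IN, and no IR or IN array stood apart. OUT arrays, which entered the fit, were lower, at 0.959 to 0.976. The mean of 4 measured B cell genes was 9.81 and 10.28 in OUT replicates 2 and 5 and 4.01 to 4.32 in the other OUT piglets. Markers of ileal enterocytes were high in every piglet. FABP6, the ileal bile acid binding protein, lay between 12.19 and 14.27 in IR and between 13.72 and 14.35 in IN, and the structural protein of the brush border VIL1 lay between 12.32 and 12.70 and between 12.43 and 12.57. Haemoglobin and other red blood cell genes, a list of 4 measured genes, had mean levels of 3.75 to 4.63 in IR and 4.01 to 4.31 in IN.

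Of 24032 probesets, 69 were called between IR and IN, or 0.287%, with 29 higher (0.121%) and 40 lower (0.166%) in IR. In simulated data of this size, drawn independently for each probeset, the same rule called 34 unchanged probesets. A large part of the 69 may therefore be calls without a real difference. After Benjamini-Hochberg adjustment over the whole array, 4 probesets (0.0166%) passed at 0.05, all lower in IR: PLIN2, CPT1A, PDK4 and PIGR. The unadjusted p was under 0.05 for 1484 probesets, or 6.18%. Values of the 6 piglets of each group did not overlap at 93 probesets (0.387%), of which 17 were among those called. The platform names 41 of the called probesets, for 37 genes, of which 26 were lower and 11 higher. Another 12 had a name only in the study's own list, and 16 had none. Among the called, 23 probesets were called under each of 28 other settings of the fit, and 32 stayed called whichever IR or IN array was left out. Without IR replicate 5 the number called was 126, without IR replicate 6 it was 105 and without IN replicate 6 it was 112.

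Genes of fatty acid oxidation and PPAR targets held 3 of the 4 smallest adjusted p values. The gene lists were chosen with earlier results of these data known, so this share is not separate support. In IR ileum, PLIN2, which coats lipid droplets, was 5.56-fold lower, CPT1A, the enzyme that commits long-chain fatty acids to mitochondrial oxidation, was 4.35-fold lower, and SLC25A20, the carrier that brings acylcarnitines into mitochondria, was 2.99-fold lower. PDK4, a kinase that shuts down glucose oxidation when fat is burned, was 6.43-fold lower. All 4 are textbook targets of the fatty acid sensing PPAR receptors. These 4 genes were called lower under each of 28 other settings of the fit, although with a single IR or IN array left out only 0 to 3 probesets of any kind had an adjusted p under 0.05.

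PLIN2 (probeset Ssc.6323.1.S1_at) had a lowest value of 7.43, a median of 7.89 and a highest value of 8.62 in IR, against 9.70, 10.57 and 11.01 in IN. Every IR piglet was below every IN piglet. The difference was -2.48 (standard error 0.36, limma adjusted p = 0.0312, exact permutation p = 0.00216), and OUT had a mean of 8.55.

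CPT1A (Ssc.8974.1.S1_at) was at 7.58, 8.31 and 9.45 in IR by the same measures and at 10.08, 10.42 and 10.95 in IN, again with no overlap. The difference was -2.12 (standard error 0.31, limma adjusted p = 0.0312, exact permutation p = 0.00216). The OUT mean of 9.24 lay between both groups, 1.26 below IN and 0.86 above IR. SLC25A20 (Ssc.19212.1.S1_at) ran from 5.96 to 8.12 in IR with a median of 7.13, and from 8.31 to 9.27 in IN with a median of 8.65. The lowest IN piglet was just above the highest IR piglet, and the difference was -1.58 (standard error 0.35, exact permutation p = 0.00216).

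PDK4 was measured by 2 probesets, and both were called without overlap. At Ssc.10131.1.A1_at IR values were 3.14, 4.63 and 6.01 (lowest, median, highest) and IN values 6.69, 7.03 and 8.37. The difference was -2.68 (standard error 0.41, limma adjusted p = 0.0317), and at Ssc.1121.1.S1_at it was -2.39 (standard error 0.49, exact permutation p = 0.00216). IR also lay below OUT at the first probeset, by 1.88, whereas IN was 0.81 above OUT.

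**Figure D1:**
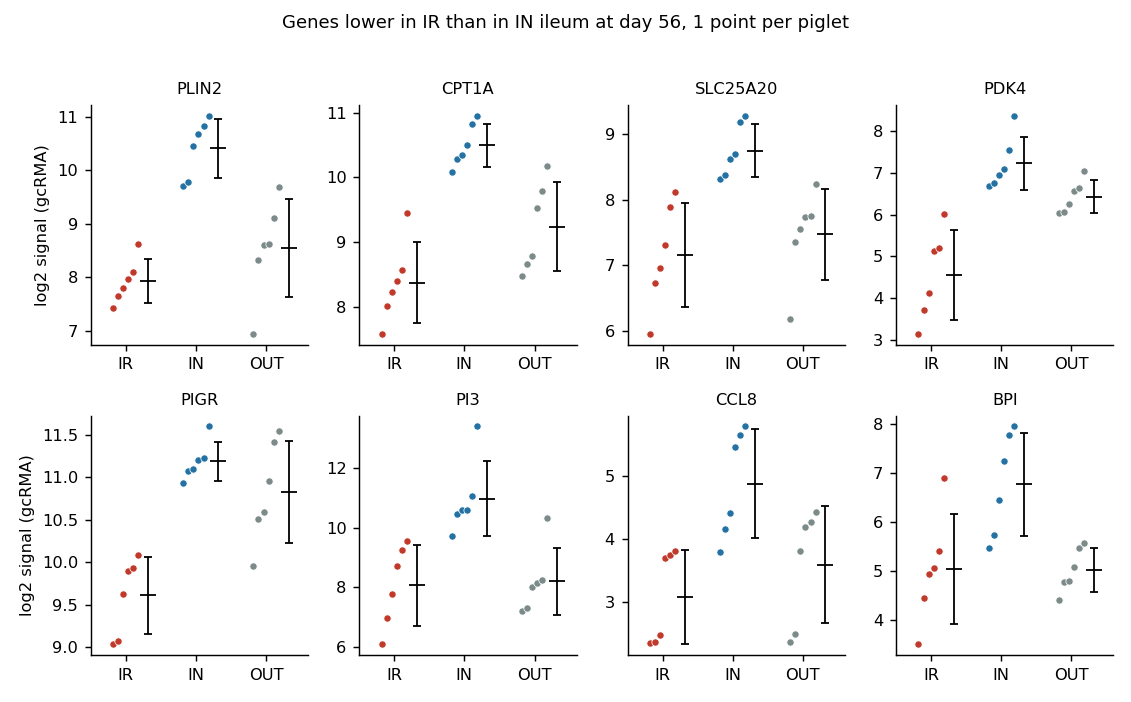
Log2 signal (vertical axes) of 8 genes in the ileum of IR, IN and OUT piglets at day 56, 1 point per piglet, with the group mean and SD in black beside the points. The IR and IN points do not overlap for PLIN2, CPT1A, SLC25A20, PDK4, PIGR and PI3, and overlap for CCL8 and BPI.

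The rest of this pathway was spread around 0. Of 40 measured genes on a list of fatty acid oxidation and PPAR targets, 4 were called lower, 0 higher and 36 not called, and the median difference was -0.13, beside -0.02 over 6765 genes with 11 called higher and 23 lower. ACAA2, the thiolase of the mitochondrial cycle, differed by -0.71 (standard error 0.23) without overlap, at 8.76 to 9.39 in IR and 9.53 to 10.58 in IN. Both chains of the trifunctional protein had small differences of one sign, -0.50 for HADHA (standard error 0.17) and -0.40 for HADHB (standard error 0.13). None of these 3 reached the 2-fold limit, and neither did ACADM (-0.16) or ACADVL (-0.32), which start the cycle on medium and very long chains. The receptor genes PPARA, at 2.75 and 2.67 on average in IR and IN, and PPARD, at 6.29 and 6.26, differed by 0.08 and 0.03. PPARGC1A, a coactivator of mitochondrial genes, had a difference of 1.21 in the other direction (standard error 0.45, exact permutation p = 0.0108), with 5 of 6 IN piglets below every IR piglet. ANGPTL4, a further PPAR target, differed by 0.17.

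Other lipid genes had few calls. APOA4, an apolipoprotein of chylomicrons, was called at 2.05-fold lower, at 11.95, 12.25 and 13.34 in IR and 13.33, 13.44 and 13.68 in IN, where only the highest IR piglet entered the IN range. It was no longer called when the IR array without a number, IR 1, IR 2 or IN 5 was left out (-0.99 to -0.94). Of 24 fat absorption and apolipoprotein genes 1 was called lower, APOA4, and 0 higher, and the median of that list was -0.02. Of 15 fatty acid synthesis genes 0 were called, with a median of 0.19. ME1, which supplies NADPH for fatty acid synthesis, had the largest difference among these 15, 1.86 (standard error 0.66), with IR values from 2.60 to 7.71 and IN values from 2.65 to 3.04, and ME1 was called higher without IR 2, IR 5 or IR 6 (2.16 to 2.28). Of 15 cholesterol synthesis genes 0 were called, with a median of -0.23, and SQLE, the squalene epoxidase, differed by -0.81 (standard error 0.53).

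PIGR, the receptor that carries dimeric immunoglobulin A across the epithelium, was lower in IR at both of its probesets. At Ssc.25372.1.S1_at IR piglets had 9.04, 9.76 and 10.09 (lowest, median, highest) and IN piglets 10.93, 11.15 and 11.60, a 2.99-fold difference (-1.58, standard error 0.25, limma adjusted p = 0.0407). At Ssc.16006.1.S1_at the values were 5.76, 6.65 and 7.16 against 8.19, 8.82 and 9.32, or 4.47-fold (-2.16, standard error 0.37, exact permutation p = 0.00216). The groups did not overlap at either probeset. IR was also below OUT, by 1.22 and 1.31, while IN was above OUT by 0.36 and 0.85.

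Genes tied to the plasma cells that make immunoglobulin A were called lower as well. TNFRSF17, a survival receptor of plasma cells, was 2.21-fold lower in IR, at 3.71, 4.08 and 4.73 against 4.78, 5.25 and 5.93, with no overlap (exact permutation p = 0.00216), and it was not called with the label number as a block (-1.12). TNFSF13, its ligand, was 2.12-fold lower and did not overlap either, at 3.42, 4.41 and 4.56 against 4.84, 5.37 and 5.76. Without IR replicate 6, the lowest piglet, the TNFSF13 difference was -0.92 and no longer 2-fold. Of 6 measured genes on the list of plasma cells and immunoglobulin A transport, 2 were called lower (PIGR and TNFRSF17), 0 higher and 4 were not called, with a median of -0.77. JCHAIN, the chain that joins immunoglobulin A dimers, differed by only -0.33 (standard error 0.13) and XBP1, a factor of plasma cell secretion, by -0.39 (standard error 0.13). CD38 differed by -1.32 (standard error 0.53) and SDC1, an epithelial and plasma cell proteoglycan, by 0.06. CCL28, an epithelial chemokine that attracts such cells, was 2.83-fold lower at Ssc.29100.1.S1_at, at 3.72, 4.77 and 5.89 in IR and 5.58, 5.88 and 7.39 in IN. This probeset lost its call when the IR array without a number, IR 2, IR 6, IN 1, IN 2 or IN 6 was left out (-1.54 to -1.27). The study gives the same name to another probeset. That probeset, Ssc.8790.1.A1_at, differed by -0.33 and was not called.

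Antimicrobial genes included some of the largest folds. PI3 (elafin), a protease inhibitor with antibacterial activity, was 7.49-fold lower, at 6.11, 8.25 and 9.54 in IR and 9.72, 10.60 and 13.38 in IN. The groups did not overlap, and the difference was -2.91 (standard error 0.67, exact permutation p = 0.00216). OUT, with a mean of 8.20, lay beside IR. BPI, which binds bacterial endotoxin, was 3.31-fold lower at Ssc.8960.1.A1_at, at 3.51, 5.00 and 6.89 against 5.47, 6.85 and 7.95, and 5 of 6 IR piglets were below every IN piglet. A brighter BPI probeset, Ssc.837.1.A1_at, differed by -1.60 (standard error 0.59) and was not called. The call of PI3 and that of BPI at the first probeset held under all 28 settings.

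Lysozyme is named here only through the study's own list, which was drawn from these arrays by comparison with OUT, so that its names were chosen on the same samples. That probeset (Ssc.670.2.S1_at, LYZ) was 14.7-fold lower in IR, at 2.77, 3.16 and 6.36 against 5.56, 7.78 and 9.27 in IN (difference -3.88, standard error 0.83, exact permutation p = 0.00649). The unnumbered IR piglet, at 6.36, stood alone within the IN range. Ssc.670.1.S1_at, a probeset with no name whose identifier shares its cluster number, was at 9.04, 9.67 and 12.17 in IR and 11.38, 12.64 and 13.22 in IN. DMBT1, a mucosal scavenger protein, had a difference of -2.30 (standard error 0.97, exact permutation p = 0.0714) and was not called, with values of 5.46 to 12.12 in IR. Of 15 measured antimicrobial genes with a platform name only PI3 was called, at its brightest probeset, and 8 were above 0 and 7 below, with a median of 0.01 that became -0.59 when dim probesets were left out. LTF, SLPI, PGLYRP1 and the cathelicidin PR39 were among those not called.

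Chemokines called lower in IR were CCL8, CCL5, CCL28 and the neutrophil attractant AMCF-II, which the chemokine list does not hold. CCL8, a monocyte attractant, was 3.48-fold lower, at 2.35, 3.09 and 3.81 in IR and 3.79, 4.93 and 5.78 in IN, so that only a single pair of piglets overlapped (exact permutation p = 0.00433). CCL5, which attracts T cells, was 2.15-fold lower, at 8.70, 9.85 and 10.80 against 10.31, 11.04 and 11.43. Without IR replicate 3 the CCL5 difference was -0.88. Of 24 chemokine and receptor genes on the list 3 were called lower (CCL8, CCL5 and CCL28), 0 higher and 21 not called, with a median of -0.58 (-1.01 without dim probesets). Below 0 lay 19 of the 24, beside 3686 of all 6765 genes. CXCL9, which is induced by interferon gamma, had the largest difference of the list, -2.35 (standard error 1.04), and was not called. Its 6 IR values ran from 2.80 to 8.93. CCL2 differed by -1.17 (standard error 0.41) and CXCL8, a neutrophil attractant, by -1.08 (standard error 0.47). AMCF-II was called at 2 probesets and 2.51-fold lower at the first, at 4.12, 5.26 and 5.83 against 5.47, 6.38 and 8.32. It lost its call without IR 1, IR 3 or IN 2, its highest piglet (-1.27 to -0.96), and the second probeset without any of 7 arrays, the IR array without a number, IR 1, 2 and 3, and IN 1, 2 and 5 (-1.23 to -0.79). A much brighter AMCF-II probeset differed by -0.07.

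Among macrophage genes, CD163, the haemoglobin scavenger receptor, was 2.51-fold lower in IR, at 5.12, 5.52 and 5.70 against 5.74, 6.66 and 8.24, with no overlap (exact permutation p = 0.00216). Its call was lost with the label number as a block (-1.19), where 0 macrophage genes were called, and with all 9 groups in 1 fit (-1.33). The SD was 0.24 in IR and 0.97 in IN, and a second, dim CD163 probeset differed by -0.42. CD5L, a secreted macrophage protein, was 2.15-fold lower at signals of 2.74 to 3.33 in IR and 3.08 to 6.09 in IN, and lost its call without any of 8 arrays, IR without a number, 1, 3, 5 and 6, and IN without a number, 1 and 2 (-1.13 to -0.70). Of 21 macrophage and dendritic cell genes these 2 were called lower, 0 higher and 19 not called, with a median of -0.50. AIF1 differed by -0.54 (standard error 0.21) and the complement genes C1QA and C1QC by -0.72 and -0.46. CD14 and MRC1 were not called. The mean level of this list was 5.67 to 6.77 in IR and 6.41 to 7.26 in IN.

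**Figure D2:**
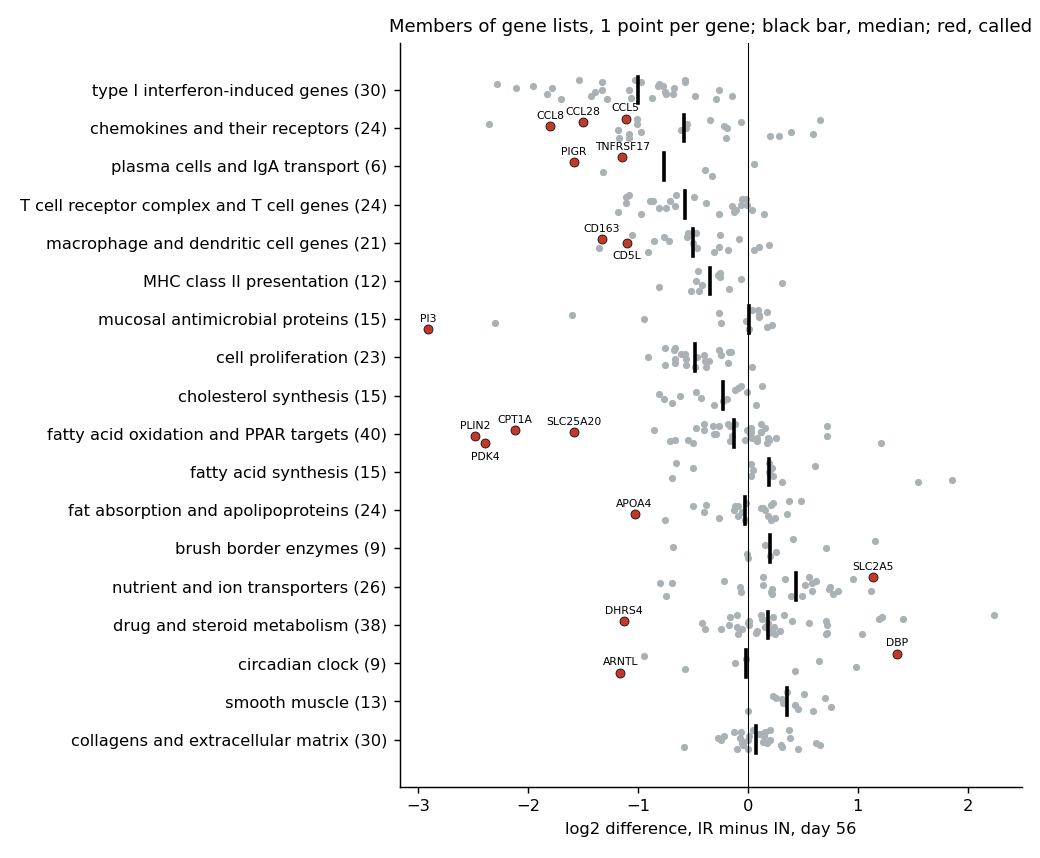
Log2 difference between IR and IN at day 56 (horizontal axis) of each measured member of 18 gene lists, 1 point per gene with the number of genes in brackets, the median of the list as a black bar and called genes in red with their names. All 30 interferon-induced genes lie below 0 with none called, while fatty acid oxidation has 4 called genes far from a median of -0.13.

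Interferon-induced genes had the lowest median of the 37 lists, without a call. The mean of IR was below that of IN for each of the 30 measured genes that type I interferon induces, with a median of -1.0 and a range of -2.28 to -0.14, but 0 were called by limma and 5 had an unadjusted p under 0.05. Over all 6765 genes 3686 lay below 0, and 280 were lower at an unadjusted p under 0.05 by limma. RSAD2 (viperin), which blocks viral replication, had a difference of -2.28 (standard error 1.16, exact permutation p = 0.132). ISG15, a ubiquitin-like modifier, had one of -2.11 (standard error 1.08) and MX1, an antiviral GTPase, one of -1.70 (standard error 0.90). IR piglets were split. In IR the mean of the list was 10.57 and 10.66 in replicates 5 and 6 and 6.94 to 7.70 in the other 4, while IN piglets lay between 8.36 and 10.62. RSAD2 thus spanned 6.29 to 13.12 in IR with a median of 8.12, and in IN it had a median of 11.34 and a highest value of 13.11. Across the 28 settings the median of the list ran from -1.54 to -0.66, and up to 3 members were called, without IR replicate 6. Genes of 1 response are not independent observations.

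The listed markers of lymphocytes and antigen presentation lay mostly below 0 and were not called. A T cell gene named only through the study's own list, TRGV9, was called and is described with the other such genes. Of 24 T cell genes on the list 22 were below 0, with a median of -0.57 and 5 with an unadjusted p under 0.05, and 0 were called by limma, although 2 were called lower without IN replicate 1. By the same measures 3686 of all 6765 genes were below 0 and 280 were lower at an unadjusted p under 0.05. Genes of 1 cell type are not independent observations. CD3E, a chain of the T cell receptor complex, differed by -0.86 (standard error 0.34), CD2 by -1.11 (standard error 0.47) and CD8A, the coreceptor of cytotoxic cells, by -1.11 (standard error 0.54). IFNG differed by -1.24 (standard error 0.49) from a low signal, with IR values of 2.26 to 3.51. All 15 genes of MHC class I and peptide loading were below 0, with a median of -0.24, and 11 of 12 MHC class II genes were, with a median of -0.34. PTPRC, which marks all leukocytes, ran from 5.70 to 7.78 in IR and from 5.99 to 7.92 in IN. B cell genes were few, and the mean of the 4 measured was 7.45 in IR replicate 2 and 3.93 to 4.18 in the other IR piglets, against 4.07 to 5.68 in IN.

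Genes of cell division and of muscle were also without calls. Proliferation genes were below 0 in 22 of 23 cases, with a median of -0.48 and 0 called by limma (1 with an unadjusted p under 0.05). Among all 6765 genes 3686 were below 0 and 3079 above. Smooth muscle genes had a median of 0.36, with 12 of 13 above 0 and 0 called. The mean of the smooth muscle list ranged from 9.91 to 11.22 in IR and from 9.27 to 10.66 in IN, and the 2 highest values were those of IR replicates 1 and 3, at 11.22 and 11.07. The same 2 piglets had the lowest T cell means (4.54 and 4.38) and macrophage means (5.94 and 5.67) of IR and IN. IN replicate 1, at 10.66 for muscle, had the lowest IN means of both lists (4.99 and 6.41). Other piglets lacked this order. IN replicate 2, at 10.57 for muscle, had a T cell mean of 5.70 and the highest macrophage mean, 7.26. OUT replicate 6 had 11.27 for muscle, 5.80 for T cells and 6.77 for macrophages. Contractile genes come mainly from the muscle layers of the tissue piece, and the part of tissue make-up in the lymphocyte and macrophage values was not tested. For the epithelium, EPCAM lay between 12.98 and 13.29 in IR and between 12.77 and 13.25 in IN.

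**Figure D3:**
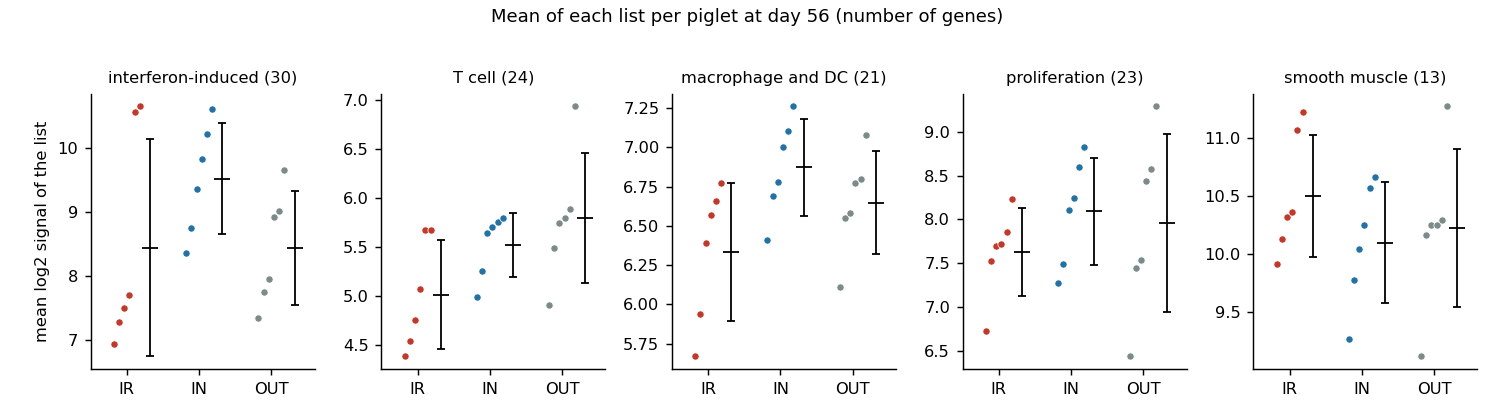
Mean log2 signal of 5 gene lists (vertical axes) per piglet in IR, IN and OUT at day 56, 1 point per piglet, with the group mean and SD in black. For interferon-induced genes 2 IR piglets lie at 10.57 and 10.66 and 4 at 6.94 to 7.70, while the other lists overlap between IR and IN.

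Genes of the circadian clock differed between the groups in both directions. DBP, an output factor of the clock that is active opposite to ARNTL (BMAL1), was 2.57-fold higher in IR, and ARNTL, the positive arm of the clock, was 2.23-fold lower. DBP values were 4.46, 5.59 and 5.98 (lowest, median, highest) in IR and 3.40, 4.04 and 4.66 in IN (difference 1.36, standard error 0.29, exact permutation p = 0.00433). ARNTL values were 4.04, 4.76 and 5.92 against 4.95, 6.23 and 6.48 (difference -1.16, standard error 0.34, exact permutation p = 0.0152). The DBP call held under all 28 settings, and that of ARNTL was lost only without IR replicate 2, at -0.99.

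Of 9 measured clock genes with a platform name, DBP was called higher, ARNTL lower and 7 were not called, with a median of -0.02 (0.20 without dim probesets). CRY2, a repressor of the clock, differed by 0.98 (standard error 0.25) with no overlap, at 5.57 to 6.21 in IR and 4.02 to 5.36 in IN, just under the 2-fold limit. NFIL3, a repressor of the DBP target genes, differed by -0.94 (standard error 0.32), also without overlap, at 6.09 to 7.64 against 7.66 to 8.36. RORA, an activator of ARNTL, differed by -0.57 (standard error 0.17) at signals near 3, and PER1 by -0.02.

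The remaining clock genes are named only in the study's own list, which was drawn from these arrays by their comparison with OUT, so that they are not independent evidence. PER2, a repressor, was 3.68-fold higher in IR, at 4.35, 5.74 and 7.09 against 3.12, 3.73 and 4.50 (difference 1.88, standard error 0.39). PER3 was higher at 2 probesets, by 1.48 (standard error 0.35) at Ssc.2364.1.S1_at and by 1.2 (standard error 0.32) at Ssc.22470.1.S1_at. The second did not overlap, at 6.95 to 7.92 against 5.05 to 6.84, and lost its call without IN replicate 2 (0.99). TEF, which binds the same sites as DBP, was 2.64-fold higher, at 6.46, 7.02 and 7.86 against 4.84, 5.68 and 6.53. Within IR, replicates 5 and 6 lay closest to IN, with 4.35 and 4.97 for PER2, 4.46 and 4.83 for DBP and 5.92 and 5.48 for ARNTL. The same 2 piglets had the high interferon means. Within IN, the unnumbered piglet had the lowest ARNTL value, 4.95, and the highest DBP value, 4.66. The hour at which each piglet was killed is not given in the sources used here, and its part in these values was not tested.

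**Figure D4:**
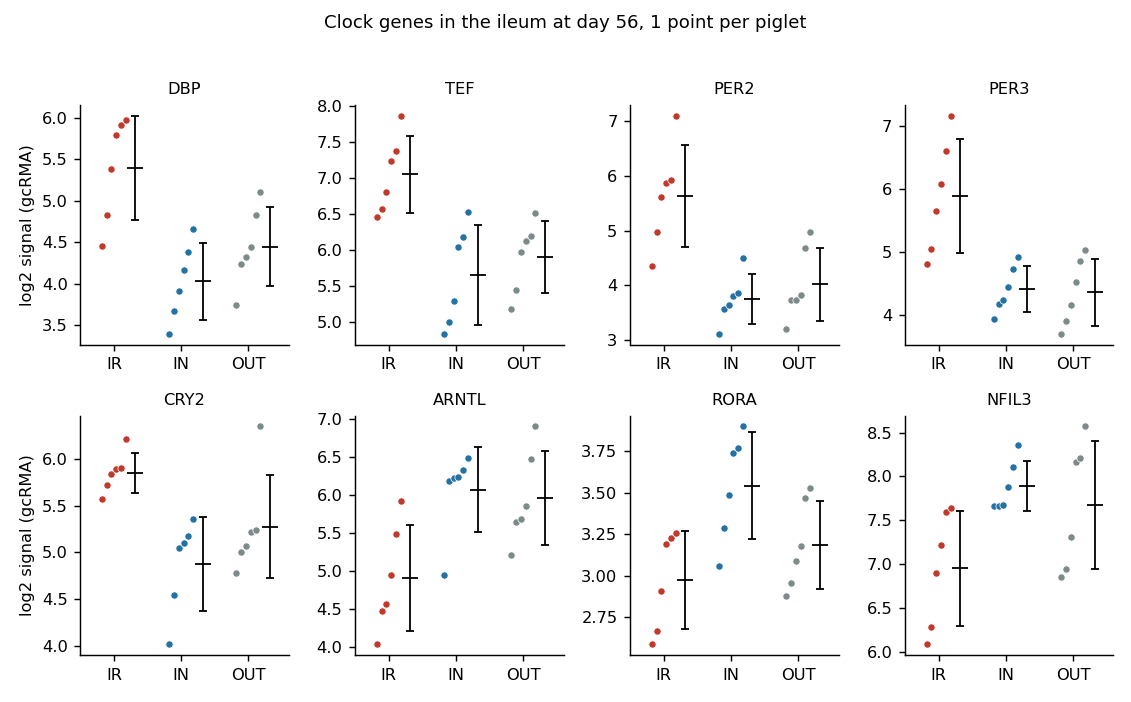
Log2 signal (vertical axes) of 8 clock genes in IR, IN and OUT piglets at day 56, 1 point per piglet, with the group mean and SD in black. DBP, TEF, PER2, PER3 (Ssc.2364.1.S1_at) and CRY2 have a higher mean in IR than in IN, and ARNTL, RORA and NFIL3 a lower one, with OUT mostly beside IN. TEF, PER2 and PER3 are named only through a list of differences from OUT, so their position against OUT is tied to that naming.

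Nutrient transporters had values above 0 in most cases. SLC2A5 (GLUT5), the fructose transporter of the brush border, was 2.20-fold higher, at 9.55, 9.87 and 10.28 in IR and 7.47, 8.97 and 9.25 in IN, with no overlap (exact permutation p = 0.00216). Without IN replicate 2, the lowest piglet, its difference of 1.14 became 0.88. SLC5A4, a member of the sodium and glucose transporter family, was 5.06-fold higher, at 9.62, 10.49 and 11.31 against 5.03, 8.79 and 10.16. The IN piglets were widely spread (SD 2.0), with replicates 1 and 2 at 6.24 and 5.03. The SLC5A4 call was lost without the IR array without a number or IN 1, at differences of 1.97 to 2.16.

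Of 26 measured nutrient and ion transporters on the list, which does not hold SLC5A4, 20 were above 0, with a median of 0.44, 1 called higher (SLC2A5) and 0 lower. Above 0 were also 3079 of all 6765 genes. The glucose transporter SLC5A1 was near the top of the scale in all piglets and differed by 0.39 (standard error 0.18). SLC3A1 and SLC7A9, the 2 chains of a transporter of cystine and basic amino acids, differed by 0.96 (standard error 0.34) and 0.62 (standard error 0.25), and the peptide transporter SLC15A1 by 0.52. SLC26A3, which exchanges chloride for bicarbonate, lay on the other side at -0.80 (standard error 0.29), and 5 of 6 IR piglets were below every IN piglet. Brush border enzymes had a median of 0.20 over 9 genes with 0 called, and epithelial junction genes one of 0.04 over 15 with 0 called. The goblet cell list, with a median of -0.08 over 9 genes and 0 called, lay near the median of all genes.

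Stress and detoxification genes were higher in IR in single cases. MT-2B, a metallothionein that binds zinc and copper, was 5.25-fold higher, at 8.16, 10.92 and 11.84 in IR and 6.87, 8.17 and 9.88 in IN (difference 2.39, standard error 0.74). It lost its call without the unnumbered IR array, IR 2, IR 6, IN 2 or IN 4 (2.12 to 2.28). MT1A had a difference of 2.76 (standard error 1.26) and was not called. HSPA6, an inducible heat shock protein, was 3.77-fold higher, and its IR piglets fell apart, with 9.22, 9.14 and 9.05 in replicates 1, 3 and 6 and 6.05 to 6.89 in the others, against 4.92 to 7.45 in IN. It was not called without IR 1, IR 3, IR 6, the unnumbered IN array, IN 1 or IN 4 (1.62 to 1.83). Of 25 heat shock and chaperone genes on the list, which does not hold HSPA6, 0 were called, and HSP70.2 differed by 1.23 (standard error 0.46) and was called higher without IR 2 (1.47). Among 38 genes of drug and steroid metabolism, 28 lay above 0 with a median of 0.18, beside 3079 of all 6765 genes above 0. DHRS4, a retinal reductase, was called, 2.20-fold lower in IR at 5.23, 5.92 and 6.26 against 6.24, 7.02 and 7.82, and it lost its call without the unnumbered IR array or IN 1 (-1.01 to -0.96), and 37 were not called. HSD17B2, which inactivates sex steroids, differed by 2.24 (standard error 0.91) and was not called.

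Glucocorticoid-responsive genes were mixed. Of 18 measured, PDK4 was called lower and 17 were not called, with a median of -0.04. By limma 6 were lower and 1 higher at an unadjusted p under 0.05, beside 280 lower and 208 higher of 6765 genes. FKBP5, a feedback regulator of the glucocorticoid receptor, differed by -0.88 (standard error 0.27), GLUL, glutamine synthetase, by -0.71 (standard error 0.20), and the factors CEBPD and CEBPB by -0.67 (standard error 0.17) and -0.88 (standard error 0.31). None of these was called, and neither were TSC22D3 and DUSP1, which respond strongly to glucocorticoids. EGR1, an immediate early factor, was 2.16-fold lower in IR, at 6.41, 7.28 and 8.24 against 7.42, 8.31 and 9.32, and lost its call without IR 1, IR 5 or IN 2 (-0.99 to -0.92). Other EGR1 probesets differed by -0.65 and -0.27 and were not called. Of 18 immediate early genes EGR1 was called lower and 17 were not called, with a median of -0.03. AGTR1, the angiotensin II receptor, was 2.54-fold lower, at 4.05, 4.75 and 6.26 against 5.23, 6.42 and 7.0, and lost its call without IR 3, IR 5 or IN 4 (-1.22 to -1.15).

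The other genes with a platform name were called at folds between 2.02 (IFT46) and 3.46 (AKR1CL1). MYLIP, a ubiquitin ligase that degrades the LDL receptor, was 3.03-fold higher in IR, at 9.26, 10.41 and 11.16 against 7.54, 8.31 and 10.13, and stayed called whichever single IR or IN array was left out. It was not called without both unnumbered arrays, with or without a block (1.3), or with all 9 groups in 1 fit (1.6). TSKU, a secreted leucine-rich protein, was higher at 2 probesets, by 1.27 (standard error 0.34) and 1.23 (standard error 0.28), under all 28 settings. AKR1CL1 (1.79), PRR15 (1.34), SEC14L2 (1.03) and IFT46 (1.02) were called higher but lost the call without any of several arrays. The study gives the probeset of AKR1CL1 another name. For AKR1CL1 the arrays were IR without a number, 1 and 3 and IN without a number, 2, 4, 5 and 6 (1.55 to 1.78). For PRR15 they were IR without a number, 1 and 3 and IN without a number, 1, 2 and 4 (1.16 to 1.36). For SEC14L2 they were IR 1, 2, 3 and 5 and IN without a number, 2, 4 and 6 (0.91 to 1.04), and for IFT46 IR without a number, 1 and 2 and IN without a number, 2 and 4 (0.84 to 1.0). EMB, a partner of monocarboxylate transporters, was 2.47-fold lower, at 4.33 to 5.65 in IR and 5.59 to 6.85 in IN, and lost its call without IR 1 or IN 2 (-1.19 to -1.17). CTSC, a protease of granules, differed by -1.04 and lost its call without any of 8 arrays, IR 1, 3 and 5 and IN without a number, 2, 4, 5 and 6 (-1.08 to -0.74). FAM26F, an interferon-responsive membrane protein, had a difference of -1.38 that was likewise lost without any of 8 arrays, IR without a number, 1 and 3 and IN without a number, 1, 2, 4 and 6 (-1.44 to -1.16). PPIF (-1.32) and ARMC6 (-1.04) lost their calls without the unnumbered IR array, IR 1, IR 6, IN 1 or IN 4, at -1.28 to -1.03 and -1.0 to -0.88. EF1ALPHA was called lower at Ssc.21418.1.S1_at (-1.39) and lost its call without any of 9 arrays, IR 1, 2, 3, 5 and 6 and IN 1, 4, 5 and 6 (-1.43 to -1.10). That symbol covers probesets that disagree, and at Ssc.16125.1.S1_x_at the difference was 1.93.

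The largest difference of all belonged to Ssc.4425.1.S1_at, which the study's own list names PCDH15, a protocadherin. Its signal was 2.99, 3.72 and 5.54 in IR and 5.34, 8.23 and 9.25 in IN, or 15.7-fold lower in IR (difference -3.98, standard error 0.70, limma adjusted p = 0.0958, exact permutation p = 0.00433). A single IR piglet overlapped with a single IN piglet. OUT had a mean of 4.05, beside IR, but the name PCDH15 comes from a list of differences from OUT. SYTL4, a vesicle protein named in the same way, was 2.48-fold lower with no overlap, at 4.72 to 5.64 against 5.81 to 7.18. Both calls held under all 28 settings. TRGV9, a gamma chain of the T cell receptor, had a difference of -1.33 (standard error 0.43), ADAMTS12, a matrix protease, one of -1.21 (standard error 0.42), and SIAT8D, a sialyltransferase, one of -1.11 (standard error 0.32). The first lost its call without any of 8 arrays, IR 1, 3 and 5 and IN without a number, 2, 4, 5 and 6 (-1.33 to -1.10), the next without any of 8, IR without a number, 1, 3 and 6 and IN without a number, 2, 4 and 5 (-1.26 to -0.98), and SIAT8D without IN 4 or IN 6 (-0.96 to -0.95). CTBS, a lysosomal glycosidase, was 2.30-fold higher in IR and lost its call without the unnumbered IR array (0.99), and PDXP, a phosphatase, was 2.16-fold higher and lost it without IR 3, IN 2 or IN 4 (0.92 to 0.96). Of the 16 called probesets without a name, 11 were higher and 5 lower, and Ssc.16538.1.S1_at (8.26 to 9.90 in IR, 6.09 to 8.11 in IN) and Ssc.24282.1.S1_at (2.43 to 3.08 in IR, 3.46 to 6.20 in IN) were without overlap.

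Other genes that the study names at day 56 in comparisons with OUT were not called between IR and IN. LY96, a partner of the endotoxin receptor, differed by -1.03 (standard error 0.44), LCP2, an adaptor of T cell signals, by -0.89 (standard error 0.50), and IFIT2, an interferon-induced protein, by -1.08 (standard error 1.13). PMP22, a membrane protein of junctions and myelin, differed by 0.89 (standard error 0.51), and COL14A1, a collagen, by 0.79 (standard error 0.41). TEC, a kinase of lymphocytes, differed by -0.74 (standard error 0.33) and PIK3CG, a kinase of leukocytes, by -0.71 (standard error 0.37). The collagen list had a median of 0.07 over 30 genes, with 0 called.

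Few of these probesets were called at earlier ages, although their share was larger than that over all probesets. At day 28 IR and IN differed at 119 probesets by the same rule (0.495%), and 5 of the 69 probesets of day 56 were among them: both of PDK4, that of AGTR1 and 2 without a name. At day 5 the rule called 88 (0.366%), and 2 of the 69 were among them, MT-2B and AGTR1. The difference between the contrasts was tested itself with all 54 arrays in 1 fit, which calls 281 probesets between days 56 and 28 (1.17%), 222 of them (0.924%) with a lower value at day 56, and 186 between days 56 and 5 (0.774%). After Benjamini-Hochberg adjustment limma left 0 against day 28, with 1935 (8.05%) at an unadjusted p under 0.05, and 2 (0.00832%) against day 5, PLIN2 and CPT1A. Without IN replicate 1 of day 28 the count of 281 was 478 and without IN replicate 3 of that day 187, and without IR replicate 5 of day 56 the count of 186 was 291. Of the 69 probesets 23 passed against day 28 and 22 against day 5. All piglets were different at each day, so the 3 contrasts share no array, although the fit shares the estimate of the spread. Since the 69 were selected for a large value at day 56, lower values at other days follow in part from that choice. The choice also favours passing for the 23 and the 22, since the contrast of day 56 is part of each difference between days.

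The lipid genes are an example. CPT1A differed between IR and IN by -2.12 at day 56, by 0.06 at day 28 (standard error 0.39) and by 0.73 at day 5 (standard error 0.35). IR means of CPT1A were 9.65, 10.01 and 8.37 at days 5, 28 and 56 and IN means 8.91, 9.95 and 10.49. The difference between the contrasts of days 56 and 5 was -2.86 (limma adjusted p = 0.0161), and that between days 56 and 28 was -2.18 (limma adjusted p = 0.265). PLIN2 had contrasts of -2.48, -0.48 and 0.75 at days 56, 28 and 5, and its difference between days 56 and 5 was -3.22 (limma adjusted p = 0.0161). PDK4 was called lower in IR at day 28 too, with a difference of -4.23 (standard error 0.67) between means of 2.79 and 7.02.

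Contrasts of several defence genes had opposite signs at days 28 and 56. CCL8 had one of 2.11 at day 28 (standard error 0.74) and of -1.80 at day 56, a difference of -3.91 between days (limma adjusted p = 0.101). BPI went from 1.37 to -1.72, PI3 from 1.75 to -2.91, CCL28 from 1.35 to -1.5 and CCL5 from 1.05 to -1.11, and each of these differences between days passed the rule for a call. At day 28 itself none of these 5 genes was called. Such a change of sign was not particular to defence genes. Of the 40 probesets called lower at day 56, 29 had the opposite sign at day 28 and 11 the same. The interferon list had a median of 0.93 at day 5 and 0.62 at day 28 against -1.0 at day 56, and the T cell list -0.04 and 0.20 against -0.57. For cholesterol synthesis the medians were 1.73 and 1.58 against -0.23, and for proliferation 0.65 and 0.46 against -0.48. The contrast of DBP was 0.19 and -0.14 at days 5 and 28, and at day 56 it was 1.5 above that of day 28. PER1, a clock repressor, had the reverse order, with -0.02 at day 56 and -1.10 (standard error 0.31) at day 28, where it passed the rule for a call.

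**Figure D5:**
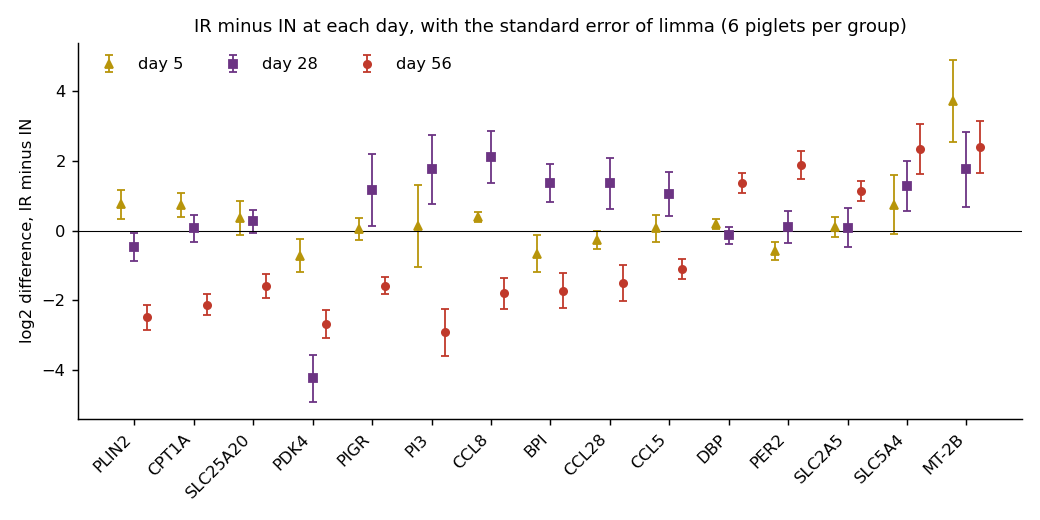
Log2 difference between IR and IN (vertical axis) at days 5, 28 and 56 for 15 genes, with the standard error of limma as bars and 6 piglets per group and day. PI3, CCL8, BPI, CCL28 and CCL5 lie above 0 at day 28 and below 0 at day 56, PDK4 is below 0 at all 3 days, and SLC5A4 and MT-2B are positive at all 3 days.

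Levels in OUT lay nearer to IN for some genes and nearer to IR for others. PIGR, EGR1, PDK4 and ARNTL were below OUT in IR, by 1.22, 1.48, 1.88 and 1.05, with IN within 0.81 of OUT, at Ssc.25372.1.S1_at for PIGR and Ssc.10131.1.A1_at for PDK4. At the other PIGR probeset, Ssc.16006.1.S1_at, IN was 0.85 above OUT. PI3, LYZ, PCDH15, BPI, CCL8, CCL28, PLIN2 and SLC25A20 were above OUT in IN, by 2.77, 2.79, 3.86, 1.75, 1.28, 1.40, 1.86 and 1.27, with IR nearer to OUT. Of the genes higher in IR, the clock genes DBP, TEF, PER2 and PER3 were above OUT by 0.95, 1.14, 1.61 and 1.52 in IR, and MYLIP was below OUT by 1.24 in IN. LYZ, PCDH15, TEF, PER2 and PER3 are named only through the study's list of differences from OUT. Their distance from OUT is therefore tied to how they got a name and is not a separate result. No test beyond the 3 pairwise contrasts was made of these positions.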

How the data were processed

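Total RNA of whole ileum was hybridized to GeneChip Porcine Genome arrays, 1 per piglet. The authors scanned them with GCOS 1.2, per the labels, and normalized them by gcRMA, and the deposited values are log2 signals, used as they were. gcRMA pulls low signals together, so that differences at dim probesets are uncertain, and arrays give no counts, so their number limits the precision. Of 24123 probesets, 91 were spike-ins or controls and were dropped. The platform gives 1 symbol to 10099 and several to 198, and 102 further probesets carry only a name from the study's own list.

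Groups came from sample titles. limma 3.58.1 (R 4.3.3) was fitted to the 18 arrays of day 56 without a block, since the labels give no run, and to 54 arrays for differences between days. The methods describe the 6 samples of a group as independent biologically and block on the experimental replicate, but the sources used here tie no array to a litter or a run, so that block was only approximated through label numbers. Gene lists (37, with 644 genes matched of 1029) used the brightest probeset of a gene, and no set test was run. Named were the 15 largest increases and decreases, probesets with adjusted p under 0.05, up to 4 members per list with the smallest p, and genes that the study names. Genes in the text beyond these were chosen after their values were seen. The arrays, genes and lists were chosen with earlier results of these data known. In simulated data for this comparison on 24032 probesets, 96% of 100 probesets shifted by 2 and 47% of 100 shifted by 1 on the log2 scale were called, with 34 unchanged ones. Alternatives were 2 blocks by label number, other sets of arrays, a filter on dim probesets (fewer than 6 arrays at or above 4 on the log2 scale), 2 normalizations, array weights, an intensity trend and each array left out. Figures were drawn with matplotlib 3.10.9.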

Additional observations from a re-analysis of the deposited data

Results flagged for a closer look

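Among 48 genes called between IR and IN, 96 groups of 6 piglets were examined, and in 9 a single piglet lay far from the other 5. Chance flags about 1 in 20 groups. In IN, replicate 2 was the lone piglet 4 times, highest for PI3 (13.38, the next at 11.05), AMCF-II (8.32, next 6.43) and CD5L (6.09, next 4.18) and lowest for SLC2A5 (7.47, next 8.70). IN replicate 1 was highest for AKR1CL1 (5.84), IN replicate 6 for CTBS (4.43), and the IN piglet without a number was lowest for ARNTL (4.95). In IR, the piglet without a number was highest for LYZ (6.36) and replicate 6 lowest for TNFSF13 (3.42).

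The contrast of IR and IN differed between days 56 and 28 for 22 of these genes by limma (p under 0.01 and at least 2-fold), although none passed Benjamini-Hochberg adjustment at 0.05. Over all probesets the same rule passed 1.17% against day 28 and 0.774% against day 5. The genes were chosen for their difference at day 56, which is part of each tested difference between days, so that choice favours passing. The difference between days was negative for PI3 (-4.65), PCDH15 (-4.12), CCL8 (-3.91), FAM26F (-3.14), BPI (-3.10), CCL28 (-2.84), PIGR (-2.74) and CPT1A (-2.18). It was also negative for CCL5 (-2.16), CD5L (-2.16), PLIN2 (-2.0), ADAMTS12 (-1.94), SLC25A20 (-1.84), SIAT8D (-1.73), SYTL4 (-1.39), ARNTL (-1.34), TNFRSF17 (-1.22) and TNFSF13 (-1.08). It was positive for AKR1CL1 (3.44), PER2 (1.78), DBP (1.5) and PER3 (1.27).

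Against day 5 the contrast differed for 20 genes, of which PLIN2 (-3.22) and CPT1A (-2.86) passed the adjustment. The others with a negative difference were PCDH15 (-4.58), LYZ (-3.68), DHRS4 (-2.58), PPIF (-2.49), CCL8 (-2.19), EF1ALPHA (-2.0), SLC25A20 (-1.93), ARMC6 (-1.68), SIAT8D (-1.61), SYTL4 (-1.45), ARNTL (-1.28), TNFRSF17 (-1.10) and TNFSF13 (-1.04). Positive differences were those of MYLIP (3.0), PER2 (2.47), TEF (1.5), PER3 (1.36) and DBP (1.18).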

How the results depend on the processing

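In 28 other fits of day 56 none of the 69 calls turned. With a single array left out the count called was 53 to 126, higher 20 to 59, lower 29 to 67 and with an adjusted p under 0.05 0 to 5. With an adjusted p in place of the rule 4 were called. With all 9 groups in 1 fit 26 were lower and 8 had an adjusted p under 0.05, and with array weights 7 had. With only the IR and IN arrays in the fit 86 were called, 61 of them among the 69, and 4 had an adjusted p under 0.05. Without the 2 unnumbered arrays 74 were called, 45 of them among the 69, and 1 had an adjusted p under 0.05. The differences between days called 187 to 478 (day 28) and 124 to 291 (day 5) with an array left out. Of 3964 values of single probesets under other settings, 3536 kept their side of the threshold, 375 fell short, 53 newly passed and 0 changed sign as calls. Leaving out dim probesets moved the medians of 8 of 37 lists by more than the spread between piglets, among them the antimicrobial, chemokine and clock lists, so dim signals limit these.

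Replicate numbers are shared by 4 IR and IN pairs. Deviations correlated at -0.31 to 0.15 within them and at -0.56 to 0.54 in the 32 other pairs. With so few shared numbers and so wide a range elsewhere, this cannot decide whether the numbers pair the piglets. With the label number as a block 75 were called (24 higher, 51 lower), 35 of them among the 69, and 1 had an adjusted p under 0.05. With numbers blocked in twos 70 were called (20 higher, 50 lower), 44 of them shared, and 0 had, and the differences between days called 201 (day 28) and 190 (day 5).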
